A study of Rattus norvegicus with 6 samples.

Results

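The 45 genes described here encode the proton pump, the membrane proteins and the soluble enzymes of the lysosome. They were chosen by name. Every gene whose symbol starts with Atp6v0, Atp6v1 or Atp6ap was taken (26 genes), together with 19 lysosome genes: Lamp1, Lamp2, Cd68, Npc1, Npc2, Psap, Gusb, Hexa, Lipa, Asah1, Grn, Scarb2, Laptm5, Tpp1, Man2b1, Neu1, Glb1, Gaa and Mcoln1. All 45 were present among the 28614 gene names of the time-course tables, and 45 were present among the 25199 of the injection experiment, where Atp6v0e is listed as Atp6v0e1. By symbol, 9 are genes of the V0 sector of the pump, 14 of the V1 sector and 3 of its accessory proteins, and the V1 genes include Atp6v1fnb, which was taken by its prefix and is named for lying beside Atp6v1f, not as a subunit. Of the 19 listed genes, 7 encode membrane proteins, 9 hydrolases and 3 (Psap, Npc2 and Grn) other lumenal proteins. These 3 are called lumenal cofactors below, though not all of them assist hydrolases.

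The values are droplet-based single-cell counts from the spinal cord, by the labels of SD rats aged 6 to 8 weeks. The labels name no genetic change, and 5 animals per condition lie behind 1 library each. In the time course, 1 library came from intact cord and 1 each from cord taken 1, 3 and 7 days after a crush at thoracic level 10. In the injection experiment, the cord was crushed in both groups, MPSS at 10 mg/ml in PBS or PBS alone was injected into it 3 days after injury, and tissue was taken 2 weeks after injury. The labels attach the crush to the intact library as well, and its title was followed. The libraries are pools of animals with no replicate library in any group, so no difference below has a replicate check and none was tested. The gene names of the time-course tables have the mouse form, a mouse Ensembl identifier among them, and those of the injection experiment the rat form. The species or gene reference behind the time-course tables is therefore not settled here. Levels were compared within each experiment and never between the 2 experiments.

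Lysosomes are acidic vesicles in which cells break down their own components and material taken up from outside. The V-ATPase acidifies them: its V1 sector in the cytosol splits ATP, and its V0 sector in the membrane carries the protons. Hydrolases such as hexosaminidase and acid lipase work in the acid lumen, some with the help of small activator proteins, and heavily glycosylated proteins such as LAMP1 and LAMP2 line the membrane. Microglia, the resident phagocytes of the cord, and macrophages that enter after injury use lysosomes to clear myelin and dead cells. The transcription factor TFEB activates many lysosome genes through a short DNA motif around the letters CACGTG.

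Promoter sequences are shown for the 3 members whose window carries the 8-letter motif TCACGTGA outside the transcribed part or within 20 bases of its start, since 1 of them, Lamp1, differed from the intact library in microglia, endothelial and ependymal cells. Windows run from 250 bases before to 50 after each gene's start, from RefSeq on the rat build GRCr8, and 36 of the 45 members had one. TCACGTGA, in capitals below, was present in 4 of the 36 (11.1%) and in 260 of all 33469 promoters (0.777%). The shorter CACGTG, which TCACGTGA contains, was present in 6 of the 36 (16.7%) and in 2148 of all promoters (6.42%). A 10-letter form with a G before and a C after TCACGTGA was present in 0 of the 36 and in 78 of all promoters (0.233%). All 3 motifs read the same on either strand. Besides the 3 genes below, Atp6v0e1 held TCACGTGA 24 bases after its start, and Gaa and Glb1 held CACGTG alone. The Lamp1 stretch lies at chr16:83075064-83075313 on the minus strand and covers the 250 bases before the start, with the motif at 66 and 39 bases before the start and CACGTG at 5 places. The Atp6v0d1 stretch lies at chr19:50357268-50357338 on the minus strand, from 90 to 20 bases before the start. The Mcoln1 stretch lies at chr12:6358218-6358277 on the plus strand, from 40 bases before the start to 20 after it. A match is a description of these rat letters and not a measured binding site. The time-course tables, with their mouse-form names, may rest on another reference.
Lamp1: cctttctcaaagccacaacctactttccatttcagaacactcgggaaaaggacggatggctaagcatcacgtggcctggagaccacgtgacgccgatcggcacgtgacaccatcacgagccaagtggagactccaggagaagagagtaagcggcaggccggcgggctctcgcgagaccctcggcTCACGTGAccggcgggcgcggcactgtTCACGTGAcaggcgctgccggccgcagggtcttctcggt
Atp6v0d1: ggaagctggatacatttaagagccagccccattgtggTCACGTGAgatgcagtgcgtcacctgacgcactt
Mcoln1: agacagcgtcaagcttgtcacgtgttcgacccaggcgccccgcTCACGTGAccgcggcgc

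Cells were assigned one by one to classes by marker genes, none of them a member, and the class names below stand for cells that are microglia-like, macrophage-like and so on by these markers. The classes were checked against their leading genes. Microglia numbered 816 in the intact library and 1641, 3092 and 4224 at days 1, 3 and 7. Macrophages numbered 49, 2627, 3308 and 652. The 6 libraries held 2757, 7360, 9263, 7467, 1377 (PBS) and 2091 (MPSS) cells after filtering, between 9661044 and 72513866 UMIs (counted RNA molecules) each, and any pair of them shared 4 to 91 cell barcodes. The leading genes of intact microglia included 6 of the class's own markers, among them P2ry12 and Tmem119, and those of day 3 microglia 5, whereas those of day 1 microglia (Ccl12, Lpl, Msr1 and others) and of day 7 microglia (Apoc1, Cst7, Apoc4 and others) included 0. The leading genes of macrophages included 3 of their own markers at day 1, 0 at day 3, 1 at day 7 and 0 in PBS. The cells that took the ependymal class at day 1 had 0 ependymal markers among their leading genes and 2 of another class, with Gfap and Aldoc leading, so they were not compared. The median UMIs per microglial cell also differed, at 3263.5, 10667, 7171.5 and 3994.5 from intact to day 7. Most microglia of each of the first libraries formed a cluster of their own (94.2% of intact and 92.0% of day 1 cells), so that library and cell state cannot be told apart. Endothelial cells likewise lay mostly in 1 cluster in the intact library (91.0%), in another at day 1 (91.8%) and in a further one at days 3 and 7 (80.7% and 95.6%), whereas ependymal cells of the intact, day 3 and day 7 libraries shared 1 cluster (100%, 84.1% and 96.8%). The part of depth and of cluster in the results was not tested.

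Levels are given as CPM, the counts of a gene per 1000000 UMIs summed over all cells of a class in a library. Brackets after a ratio hold its exact 95% interval, which covers counting error only. A ratio was formed where the sums it compares held at least 10 UMIs together, which left 38 of the 45 members in most comparisons of the time course. The other 7, Atp6ap1l, Atp6v0a4, Atp6v1b1, Atp6v1c2, Atp6v1e2, Atp6v1fnb and Atp6v1g3, had at most 22 UMIs in any whole time-course library. Several of these encode V-ATPase subunits known from kidney or testis.

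Among microglia, endothelial and ependymal cells of the intact cord, the listed lysosome genes were carried mainly by microglia, while the pump was shared more evenly. The other classes, oligodendrocytes among them, held under 50 cells there and were not measured. All 45 members together made up 12261 CPM in intact microglia, 3993 in endothelial cells and 3965 in ependymal cells. Of 37 members measured, 17 were at least 2-fold higher in microglia than in endothelial cells and 2 lower, against 15.8% and 28.1% of all genes. Among the 19 listed genes 14 were higher and 0 lower, and among the 18 pump genes 3 were higher and 2 lower. Laptm5, which encodes a lysosomal membrane protein of blood-lineage cells, stood at 1554 CPM in intact microglia and 51.0 in endothelial cells, 30.5-fold higher (26.5 to 35.2). Cd68, a membrane glycoprotein used to mark phagocytes, stood at 620.3 and 15.0 CPM. The endothelial values of these genes give the level found in cells that should lack them. With every cell reduced to 1000 UMIs, 43.1% of intact microglia and 1.65% of endothelial cells had a Cd68 UMI (81.7% and 4.96% before), at median depths of 3263.5 and 2880 UMIs. In the injured cord the same comparison gave 17, 22 and 21 members higher and 2 lower each time at days 1, 3 and 7, against backgrounds of 15.4, 16.9 and 17.2% higher and 31.1, 32.1 and 38% lower.

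The summed module was lowest in microglia at day 1 and highest at day 7. Together the members stood at 12261, 8183, 15255 and 16167 CPM in microglia from intact to days 1, 3 and 7. The lumenal cofactors followed the same order of libraries, at 4293, 2283, 5810.4 and 6598 CPM, and so did the hydrolases, at 2199, 1093, 2498 and 2619.6 CPM. V1 subunits differed less between libraries, at 1316, 1386, 1669 and 1639 CPM, and V0 subunits less still, at 1132, 1027, 1192 and 1152 CPM. In macrophages, too few to measure in the intact library, the members stood at 10940, 20601 and 16888 CPM at days 1, 3 and 7. The sum in endothelial cells stayed between 3689 and 4305 CPM over the 4 libraries.

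At day 1 the share of members lower in microglia than in the intact library was near that of all genes. Of 37 members measured, 1, Lamp1, was at least 2-fold higher and 8 lower, against 16.9% and 24.7% of all genes. The median log2 ratio of the members was -0.27 and that of all genes -0.18. The 6 listed genes among the 8 were Hexa, Man2b1, Laptm5, Psap, Lamp2 and Asah1, and the others were Atp6v0e2 and Atp6v0c. At day 3, 3 members were higher and 3 lower, against 12% and 24%, with medians of 0.26 for the members and -0.37 for all genes. At day 7, 4 of 38 were higher and 4 lower, against 8.63% and 29.4%, with medians of 0.29 and -0.58. The 3 comparisons share the intact library.

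These splits depended on how the libraries were scaled. Trimmed-mean (TMM) and median-of-ratios scaling moved every log2 ratio of phagocytes or microglia against intact up by between 0.37 and 0.71, the members' median and the all-gene median alike. Under TMM the splits in microglia were 1 higher and 4 lower at day 1, 12 and 1 at day 3, and 16 and 0 at day 7. Under median-of-ratios scaling they were 1 and 4, 12 and 1, and 19 and 0. No member past 2-fold in a single comparison on at least 50 UMIs over both sums changed its direction under the alternatives run. Members past 2-fold on fewer UMIs were not followed. The values below are CPM, so a gene lower by less than the shift is not lower under the other scalings. Likewise, a gene under 2-fold higher in CPM can be past 2-fold under them. Statements below on 2-fold or on nearness to intact hold for CPM.

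All phagocytes combined bring in the macrophages, since microglia were 816 of 869 phagocytes in the intact library and 1641 of 4401, 3092 of 6661 and 4224 of 5108 at days 1, 3 and 7. At day 1, 2 of 38 members were higher and 8 lower, against 16.4% and 26.1% of all genes, with medians of -0.25 and -0.23. Day 3 gave 7 and 6, against 13.3% and 30.7%, with medians of 0.52 and -0.47. The 7 higher at day 3 were Lamp1, Atp6v0d2, Atp6v1a, Lipa, Cd68, Atp6v0e and Psap, and the 6 lower were Man2b1, Laptm5, Atp6v0a2, Atp6v0c, Atp6v0e2 and Atp6v1g2. Day 7 gave 3 and 4, against 8.32% and 29.3%, with medians of 0.33 and -0.59. Under TMM the splits were 3 and 3, 21 and 2, and 20 and 1, and under median-of-ratios scaling 6 and 3, 21 and 2, and 21 and 1.

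Among the hydrolases, Hexa differed most between libraries in microglia. Hexa encodes the alpha subunit of beta-hexosaminidase, which removes a sugar from GM2 ganglioside, and stood at 848, 228, 1117 and 1102 CPM from intact to day 7. It was 3.73-fold lower (3.54 to 3.92) at day 1 than in the intact library, and days 3 and 7 lay above intact. Man2b1, lysosomal alpha-mannosidase, stood at 374, 101, 184 and 298 CPM, with all 3 injured libraries below intact and day 1 lowest, 3.70-fold lower (3.43 to 4.00). At day 3 it was still 2.03-fold lower (1.89 to 2.17). Asah1, acid ceramidase, stood at 427, 193, 274 and 389.7 CPM and was 2.21-fold lower (2.07 to 2.36) at day 1. The day 3 and day 7 values of Asah1 lay between the day 1 and the intact value.

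Of the other hydrolases, Gusb and Glb1 were past 2-fold above intact on 1 day each. Gusb, beta-glucuronidase, stood at 198, 281, 438 and 299 CPM, with day 3 highest, 2.21-fold higher (2.03 to 2.41) against intact. Glb1, lysosomal beta-galactosidase, stood at 43.5, 24.9, 75.1 and 87.0 CPM and was 2.00-fold higher (1.67 to 2.42) at day 7. Day 1 was the lowest library for Glb1 and day 7 the highest. Lipa, the acid lipase that frees cholesterol and fatty acids from lipoprotein lipids, stood at 63.0, 40.5, 81.5 and 102 CPM, and Tpp1, a lysosomal peptidase, at 137, 93.5, 208 and 216 CPM. Both were lowest at day 1 and highest at day 7, without reaching 2-fold against intact in CPM. Gaa, the acid glucosidase that degrades glycogen, and Neu1, a sialidase, stayed between 45.2 and 66.4 and between 59.8 and 75.6 CPM.

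The lumenal cofactors split by day. Psap encodes prosaposin, the precursor of the saposins that help enzymes degrade sphingolipids, and stood at 2125, 753, 2096 and 2348 CPM in microglia. It was 2.82-fold lower (2.74 to 2.91) at day 1, and days 3 and 7 were near the intact level in CPM. Grn encodes progranulin, a secreted protein that lysosomes cut into granulins, and stood at 1109, 841, 2300 and 2372 CPM. Days 3 and 7 were above intact, 2.07-fold higher (2.00 to 2.15) and 2.14-fold higher (2.06 to 2.22), and day 1 was below it. Npc2, the lumenal carrier that hands cholesterol to NPC1, stood at 1059, 689, 1414 and 1877 CPM, lowest at day 1 and highest at day 7. No CPM ratio of Npc2 to intact was past 2-fold.

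Membrane proteins differed in both directions. Laptm5 stood at 1554, 539, 919.9 and 776 CPM, with every injured library below intact, 2.88-fold lower (2.78 to 2.98) at day 1 and 2.00-fold lower (1.94 to 2.07) at day 7. Lamp2, the membrane protein needed for chaperone-mediated autophagy, stood at 405, 158, 331 and 354 CPM and was 2.56-fold lower (2.39 to 2.74) at day 1 alone. Cd68 stood at 620.3, 671, 1001 and 1178 CPM, higher in each later library but without reaching 2-fold in CPM in microglia. Scarb2, the receptor that carries glucocerebrosidase to the lysosome, stood at 104, 53.5, 169 and 144 CPM and had its lowest value at day 1. Mcoln1, the lysosomal calcium channel, stayed between 11.9 and 18.98 CPM, and Npc1, the membrane cholesterol transporter, between 37.6 and 45.2 CPM.

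**Figure D1:**
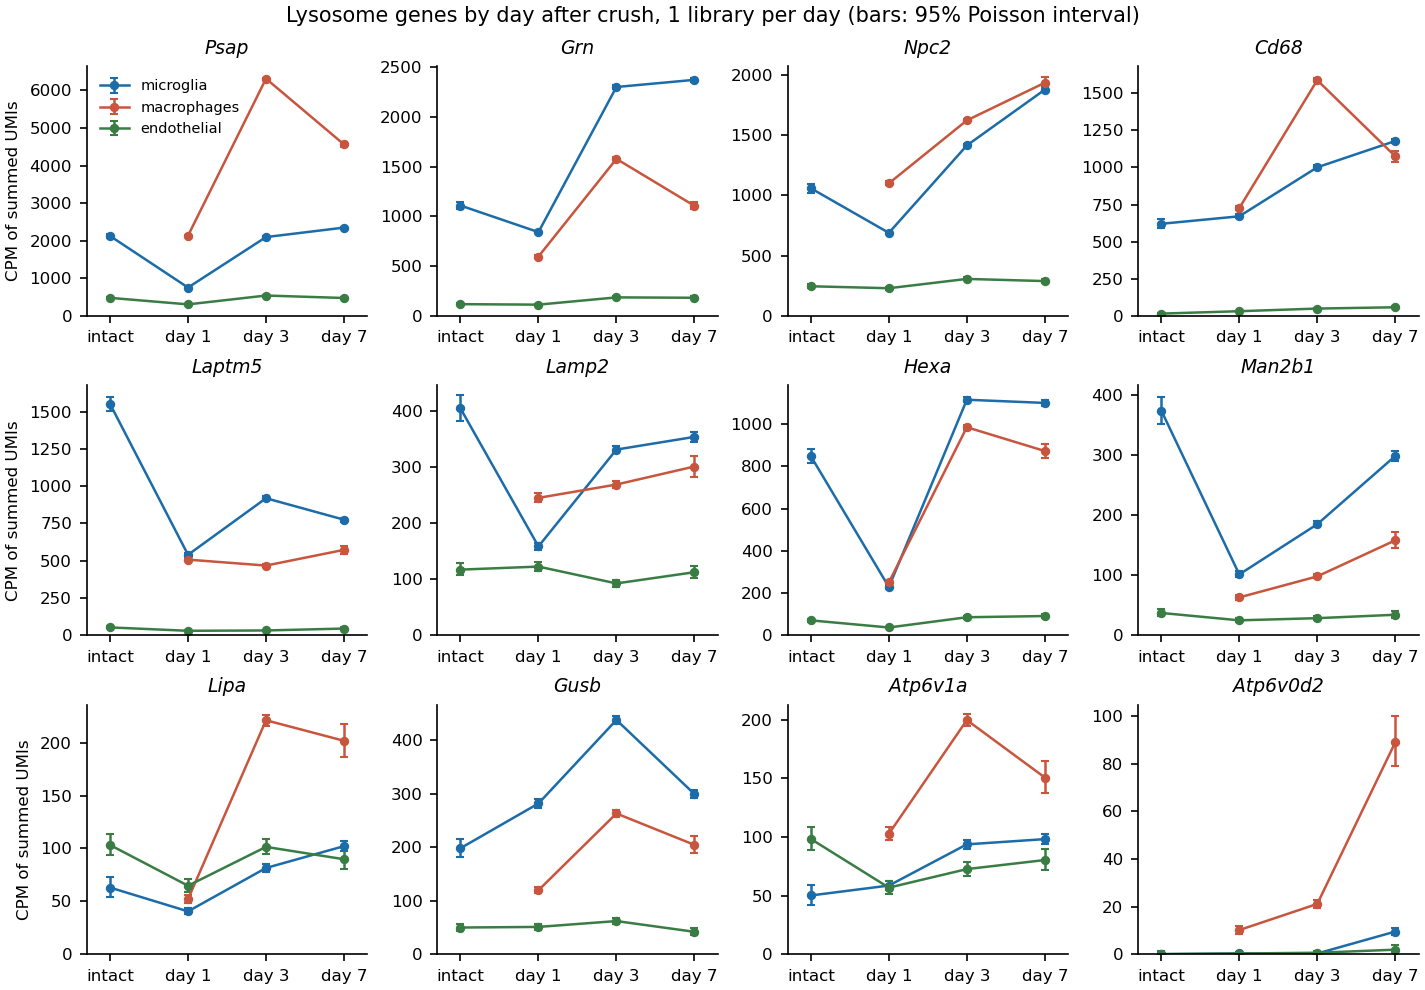
Level in CPM of 12 members (1 panel each) in microglia, macrophages and endothelial cells of the intact library and at days 1, 3 and 7, with bars for the exact 95% Poisson interval. In microglia Psap, Hexa, Laptm5 and Lamp2 are lowest at day 1, and in macrophages Psap, Hexa, Lipa and Grn are lowest at day 1 and highest at day 3.

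In macrophages 5 of 9 hydrolases and 2 of 3 lumenal cofactors were at least 2-fold higher at day 3 than at day 1, and 0 of either group lower. Of 38 members measured, 10 were at least 2-fold higher at day 3 and 1 lower, against 8.48% and 13.3% of all genes, and the median log2 ratio was 0.52 against -0.15. Among the 19 listed genes 9 were higher and 0 lower, with a median of 0.99. Among the 19 pump genes measured 1 was higher and 1 lower, with a median of 0.19. TMM scaling moved the medians by 0.21 and gave 14 higher and 0 lower. Most day 1 macrophages (71.2%) lay in 1 cluster and most day 3 macrophages (54.1% and 22.2%) in 2 others, so library and cell state cannot be told apart here either.

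The largest ratios belonged to lipid and ganglioside hydrolases. Lipa stood at 52.1, 221 and 202 CPM in macrophages at days 1, 3 and 7 and was 4.25-fold higher (3.93 to 4.59) at day 3 than at day 1. Hexa stood at 249.7, 986 and 873 CPM and was 3.95-fold higher (3.81 to 4.09). Day 7 stayed near day 3 for both genes. Glb1 stood at 14.5, 49.4 and 74.4 CPM, 3.40-fold higher (2.93 to 3.95) at day 3 and highest at day 7. Tpp1 stood at 85.4, 199 and 169.6 CPM, 2.33-fold higher (2.19 to 2.48), and Gusb at 119, 263 and 204 CPM, 2.20-fold higher (2.09 to 2.32). In both the day 1 library was lowest and day 3 highest. Man2b1 and Asah1, at 62.6, 97.6 and 158 and 248, 248 and 345 CPM, had their highest values at day 7, and neither reached 2-fold between neighbouring days. Gaa was at 24.3, 48.2 and 40.8 CPM and Neu1 at 62.3, 83.9 and 55.0 CPM.

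The cofactors and membrane proteins of macrophages followed. Psap stood at 2134, 6312 and 4562 CPM and was 2.96-fold higher (2.92 to 2.99) at day 3, and within the day 3 library it reached 7053 CPM in the largest macrophage cluster and 2060 CPM in a smaller one. Grn stood at 596, 1577 and 1106 CPM, 2.65-fold higher (2.59 to 2.71), and Npc2 at 1099.7, 1622 and 1935 CPM, higher on each later day without reaching 2-fold. Cd68 stood at 726, 1588 and 1075 CPM, 2.19-fold higher (2.14 to 2.23). Day 3 was the highest library for Psap, Grn and Cd68, and day 1 the lowest. Mcoln1 stood at 9.84, 22.0 and 22.6 CPM and was 2.24-fold higher (1.86 to 2.71). Laptm5 stood at 507, 467 and 573 CPM in macrophages, and Lamp2 at 245, 269 and 301 CPM. Neither differed by 1.5-fold between neighbouring days. Scarb2, at 90.1, 155 and 127 CPM, and Npc1, at 56.1, 77.8 and 62.1 CPM, were also highest at day 3.

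From day 3 to day 7 most members of macrophages were somewhat lower. The median log2 ratio was -0.28 against -0.10 for all genes, and 2 of 38 members were at least 2-fold higher and 0 lower, against 9.01% and 7.9%. The 2 were Atp6v0d2 and Atp6v1g2, the latter on 6 and 25 UMIs. The pump gene Atp6v1c1 had the lowest ratio, at 229.6 and then 134 CPM, 1.71-fold lower (1.55 to 1.89). The make-up of the class differed between these libraries. Cluster 20 held 54.1% of macrophages at day 3, and cluster 26 held 22.2% at day 3 and 54.0% at day 7. Leading genes at day 7 included Elane, Mpo, Prss34 and Mcpt8, which are no markers of the class. Library and cell state cannot be told apart in this comparison.

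Set beside microglia of the same library, macrophages carried more Psap on each day of the time course and more Atp6v0d2 throughout. At day 1, 2 of 38 members were at least 2-fold higher in macrophages and 4 lower, against 12.7% and 21.9% of all genes, at day 3, 4 and 2, against 7.92% and 17.9%, and at day 7, 1 and 2, against 8.81% and 13.5%. Psap was 2.83-fold higher (2.78 to 2.89) in macrophages at day 1 and 3.01-fold higher (2.98 to 3.04) at day 3. At day 7 Psap was still higher in macrophages, by less than 2-fold. Lipa was 2.71-fold higher (2.58 to 2.85) at day 3, and Grn was 2.15-fold lower (2.07 to 2.22) at day 7. With clusters in place of single-cell gating, 4 members were higher and 0 lower at day 3, and 3 and 0 at day 7, so the members lower in macrophages on those days, Grn included, were not past 2-fold. In the injection experiment 1 of 36 was higher and 1 lower in PBS (7.44% and 9.35% of all genes), and 1 and 0 in MPSS (7.21% and 9.71%). In neutrophils 22, 18 and 25 members were at least 2-fold lower than in macrophages at days 1, 3 and 7 (of 38, 38 and 36) and 2, 1 and 0 higher. The shares of all genes were 21.6, 39 and 39.3% lower and 14.9, 15.9 and 9.9% higher, so the day 3 share of members lower lay closest to the background. Among the 19 listed genes 15, 12 and 18 were lower, and among the pump genes 7, 6 and 7 (of 19, 19 and 17).

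**Figure D2:**
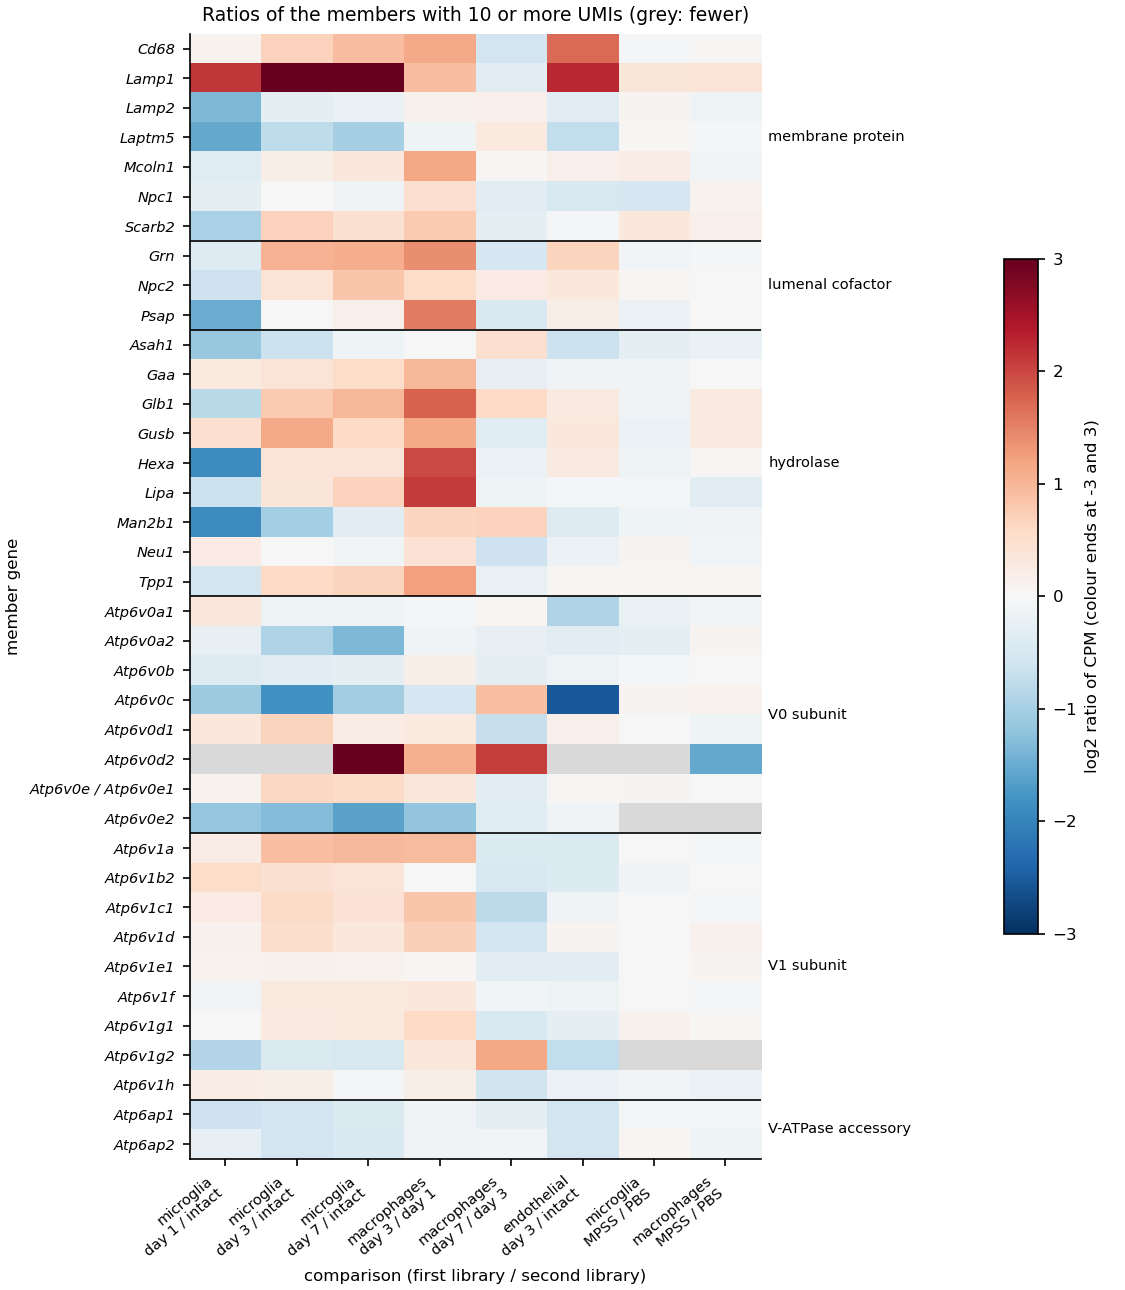
Log2 ratio of CPM for each member (rows) in 8 comparisons (columns), with values beyond the colour scale drawn at its ends and grey where the sums held under 10 UMIs. Lamp1 is the member above 2-fold in every column that sets a library against intact, and Atp6v0d2 at day 7 in microglia, against 0 UMIs, is drawn at the end of the scale.

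Lamp1, one of the most abundant proteins of the lysosomal membrane, was higher in the injured than in the intact libraries in microglia, endothelial and ependymal cells. In microglia it stood at 134, 592, 1305 and 1318 CPM, in endothelial cells at 97.5, 335, 464 and 392 CPM from intact to day 7, and in ependymal cells at 72.0, 574 and 506 CPM in the intact library and at days 3 and 7. The intact library was lowest in all 3 classes, and its counting intervals did not overlap those of any injured library compared. In microglia Lamp1 was 4.43-fold higher (4.00 to 4.92) at day 1, 9.77-fold higher (8.83 to 10.8) at day 3 and 9.86-fold higher (8.92 to 10.9) at day 7. In endothelial cells the ratio to intact was 3.43 at day 1, and over the 3 classes it ran from 4.76 to 9.77 at day 3 and from 4.02 to 9.86 at day 7. Of 9486 genes with enough UMIs in all 8 of these comparisons, 99 (1.04%) were at least 2-fold higher in every one and 37 (0.39%) lower. Lamp1 was the only one of 37 members among them. With 1 intact library, and with the microglia and endothelial cells of different libraries in different clusters, a difference between libraries and one between conditions cannot be told apart. In macrophages Lamp1 stood at 900.0, 1715 and 1351 CPM, 1.91-fold higher (1.87 to 1.94) at day 3 than at day 1.

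The share of cells with a Lamp1 UMI was also lowest in the intact library. With each cell reduced to 1000 UMIs, 13.8% of intact microglia and 43.3, 73.8 and 70.5% of microglia at days 1, 3 and 7 had one, and in endothelial cells the shares were 8.96, 30.1, 34.4 and 30.5%. Without that reduction the shares in microglia were 34.3, 91.7, 99.3 and 95.4%. Median depths of the endothelial cells were 2880, 4413, 4030 and 2483 UMIs, and no cell of either class was too shallow to be reduced.

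**Figure D3:**
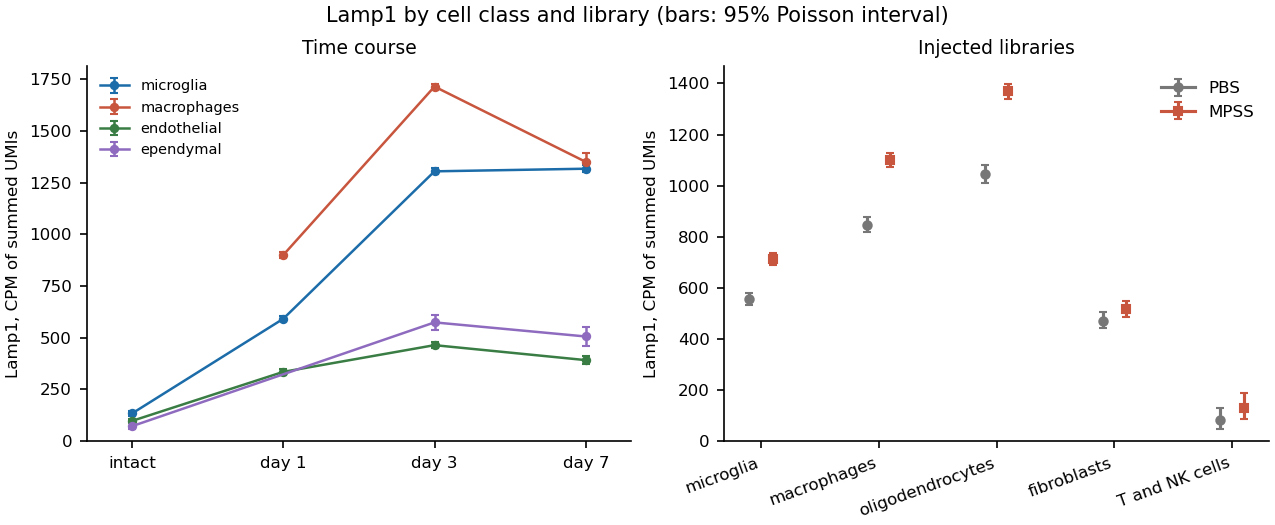
Lamp1 level in CPM by class, with exact 95% Poisson intervals: intact and days 1, 3 and 7 on the left (4 classes) and PBS beside MPSS on the right (5 classes). Ependymal cells are drawn without day 1. The intact library lies lowest in microglia, endothelial and ependymal cells, and MPSS lies above PBS in each of the 5 classes drawn.

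Of the pump subunits found in most cells, Atp6v1a and Atp6v0e were past 2-fold in all phagocytes at day 3. Atp6v1a, the catalytic subunit of V1, stood at 50.1, 58.5, 93.7 and 98.2 CPM in microglia and 103, 199.7 and 151 CPM in macrophages at days 1, 3 and 7. In all phagocytes together it was 2.77-fold higher (2.38 to 3.25) at day 3 than in the intact library, and within the day 3 library macrophages were 2.13-fold higher (2.03 to 2.24) than microglia. Atp6v0e, a small V0 subunit, stood at 294, 317, 448 and 439 CPM in microglia and 624, 785 and 620.3 CPM in macrophages, and was 2.06-fold higher (1.93 to 2.20) in all phagocytes at day 3. In both subunits macrophages lay above microglia on each shared day. Atp6v0b stayed between 488 and 636 CPM in microglia and Atp6v1g1 between 448 and 546 CPM.

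V-ATPase subunits come in isoforms that are encoded by separate genes. Of the a subunits, which anchor the pump in particular membranes, Atp6v0a1 stood at 33.7, 42.7, 30.2 and 31.1 CPM in microglia and Atp6v0a2 at 41.4, 34.6, 21.9 and 16.3 CPM. Atp6v0a2 was lower on each later day, 2.53-fold lower (2.03 to 3.14) at day 7. In macrophages Atp6v0a1 was at 30.6, 29.2 and 30.3 CPM and Atp6v0a2 at 13.4, 12.4 and 10.5 CPM. Atp6v0a4, known from kidney, had at most 18 UMIs in a whole time-course library. Of the B subunits, Atp6v1b2 stood at 77.2, 114, 107 and 101 CPM in microglia and Atp6v1b1 had at most 1 UMI in any of the 4 libraries. Of the C subunits, Atp6v1c1 stood at 103, 123, 154 and 139.7 CPM and Atp6v1c2 had at most 2 UMIs. Of the E subunits, Atp6v1e1 stood at 136, 147, 149.5 and 146 CPM and Atp6v1e2 had 0 UMIs in each of the 4 libraries.

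Of the e and G isoforms, Atp6v0e2 and Atp6v1g2 were lower in microglia than in oligodendrocyte precursors. Atp6v0e2 stood at 147, 147 and 147 CPM in ependymal cells of the intact, day 3 and day 7 libraries, at 109, 280.0 and 246 CPM in oligodendrocyte precursors at days 1, 3 and 7, and at 4.52, 2.03, 1.84 and 1.48 CPM in microglia from intact to day 7. Microglia were far below ependymal cells in each of these 3 libraries. Atp6v0e2 was among the members lower in injured microglia, 3.06-fold lower (1.46 to 6.11) at day 7, at levels that rest on 13 and 28 UMIs. In endothelial cells it was at 43.8, 24.6, 41.0 and 35.3 CPM. Of the G subunits, Atp6v1g2, known from neurons, stood at 11.2, 38.3 and 21.3 CPM in oligodendrocyte precursors and between 1.51 and 2.78 CPM in microglia, and Atp6v1g3 had at most 1 UMI in a time-course library. Atp6v0c, the proton-carrying ring subunit, stood at only 13.2, 6.34, 3.76 and 6.43 CPM in microglia. This gene has near-identical copies in rodent genomes, so reads may have been split or dropped in counting and its values are uncertain.

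Atp6v0d2 behaved unlike its partner isoform Atp6v0d1. The d2 subunit is known from osteoclasts and from macrophages, whereas d1 is found in most cells. Atp6v0d1 stood at 109.6, 136, 174 and 128 CPM in microglia and 215, 265 and 165 CPM in macrophages, and no ratio of it reached 2-fold. Atp6v0d2 stood at 10.1, 21.1 and 89.0 CPM in macrophages at days 1, 3 and 7, on 140, 637 and 288 UMIs. It was 2.08-fold higher (1.73 to 2.52) at day 3 than at day 1 and 4.22-fold higher (3.65 to 4.85) at day 7 than at day 3. In microglia it had 0 UMIs in the intact library, 5 at day 1, 7 at day 3 and 180 at day 7, or 9.49 CPM, at least 9.09-fold higher than a floor of 3 UMIs in intact microglia. Most of the 180 lay in cells of a cluster that was named macrophage. Within libraries, macrophages were 9.37-fold higher (7.76 to 11.4) than microglia at day 7.

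The Atp6v0d2 UMIs lay in few cells and few clusters. At day 7, 281 of the 288 UMIs of macrophages (97.6%) came from the 352 macrophages of a single cluster, cluster 26, and 134 of the 180 UMIs of microglia (74.4%) from the 395 cells of the microglial gate that lay in that same cluster. Atp6v0d2 reached 133 CPM in the former cells and 54.7 CPM in the latter. Cluster 26 was named macrophage by its mean marker scores and also held 54.0% of all day 7 macrophages. Most Atp6v0d2 UMIs of day 7 microglia thus lay in cells that clustering places with macrophages. At day 1, 79.3% of the macrophage UMIs lay in cluster 19, and at day 3, 70.6% in cluster 20, which are also the largest macrophage clusters of those libraries. With each cell reduced to 1000 UMIs, 0.799, 1.36 and 4.75% of macrophages had an Atp6v0d2 UMI at days 1, 3 and 7, against 0, 0.138 and 0.235% of endothelial cells. Median depths were 4690, 7850.5 and 4300.5 UMIs in these macrophages and 4413, 4030 and 2483 in the endothelial cells. Without the reduction 67, 263 and 104 macrophages had one, or 2.55, 7.95 and 16.0%. In both counts day 7 was highest, and the endothelial share was lower than that of macrophages on each day.

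**Figure D4:**
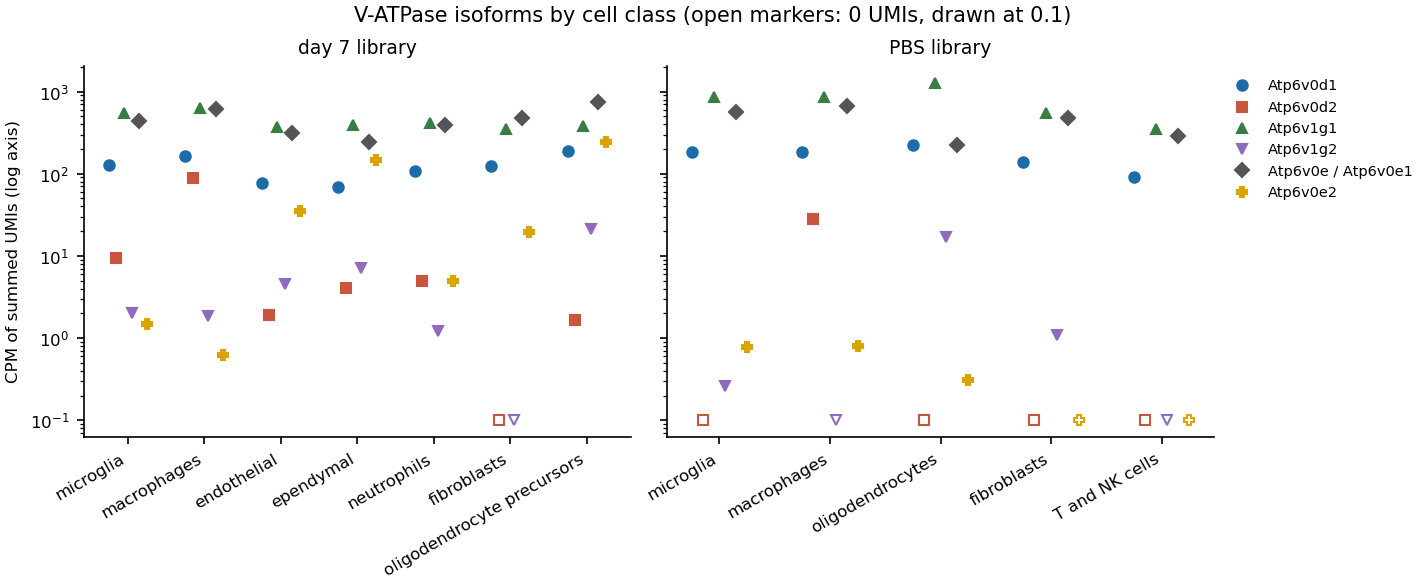
Level in CPM (log axis) of V-ATPase isoforms that share a subunit, by class, in the day 7 and the PBS libraries, with open markers at 0.1 for 0 UMIs. At day 7 Atp6v0d2 lies highest in macrophages, and Atp6v0e2 lies highest in ependymal cells and oligodendrocyte precursors.

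In endothelial cells the shares of members past 2-fold were near those of all genes or under them. Against intact, 2 of 37 were at least 2-fold higher and 2 lower at day 1 (13.9% and 13.4% of all genes), 2 and 1 at day 3 (9.41% and 9.4%), and 2 and 0 at day 7 (5.17% and 7.86%). The medians were -0.16, -0.15 and -0.12 for the members and -0.04, -0.17 and -0.19 for all genes. The 2 higher genes were Lamp1 and Cd68 on each day, and the lower ones were Atp6v0c and, at day 1, Atp6v0a1. Cd68 stood at 15.0, 31.1, 48.9 and 57.7 CPM in endothelial cells, and the same libraries held 620.3, 671, 1001 and 1178 CPM in microglia, so the phagocyte level moved with it, and the part of RNA from phagocytes was not tested.

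The other genes of the lysosome were 44 further enzymes, transporters and regulators that are no members. Against intact their median lay below that of all genes at day 1 and above it at days 3 and 7. Of the 44, 5 were at least 2-fold higher and 12 lower in microglia at day 1, 6 and 3 at day 3, and 7 and 3 at day 7, with medians of -0.39, 0.09 and -0.07. The medians of all genes were -0.18, -0.37 and -0.58. The shares of all genes were 16.9% and 24.7%, 12% and 24%, and 8.63% and 29.4%. At day 1 the 12 of 44 lower were near the background, and at days 3 and 7 the 3 of 44 lower were under it. In all phagocytes the counts were 5 and 12, 6 and 4, and 7 and 3, against 16.4% and 26.1%, 13.3% and 30.7%, and 8.32% and 29.3%. Cd63, a membrane protein of late endosomes, stood at 567, 1820.5, 1742 and 2331 CPM, 4.11-fold higher (3.91 to 4.32) at day 7. Acp5, the acid phosphatase used to stain osteoclasts, stood at 1.04, 5.29, 23.1 and 38.0 CPM in microglia and 85.7, 246 and 206 CPM in macrophages. The intact value of Acp5 rests on 3 UMIs and that of Igf2r, a mannose 6-phosphate receptor, on 4, so their ratios at day 3, 22.1 (7.53 to 108) and 6.70 (2.58 to 24.8), are wide. Gla, alpha-galactosidase, was 3.19-fold higher (2.31 to 4.54) at day 3, and Gnptab, which makes the mannose 6-phosphate tag, 3.16-fold higher (1.79 to 6.18). Both were higher in every injured library.

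Genes of this list that were lower in microglia included a sulfatase, a phospholipase and the regulators. Arsb stood at 141 CPM in intact microglia and 32.6 at day 1, 4.31-fold lower (3.78 to 4.91). Pla2g15, a lysosomal phospholipase, was 2.48-fold lower (2.25 to 2.73) at day 3. Tfeb, the regulator named above, stood at 39.7, 14.1, 16.6 and 16.9 CPM and was 2.35-fold lower (1.88 to 2.92) at day 7. Tfe3, its relative, stood at 91.5, 31.3, 44.7 and 39.0 CPM and was 2.35-fold lower (2.03 to 2.70). The shift of up to 0.71 in log2 between scalings applies to these ratios too. In macrophages 14 of the 44 were at least 2-fold higher at day 3 than at day 1 and 0 lower, against 8.48% and 13.3% of all genes, with a median of 0.69, among them Sgsh and Naglu, which degrade heparan sulfate, and Galc, which degrades glycolipids. Naglu stood at 16.9, 78.4 and 96.7 CPM, 4.65-fold higher (4.06 to 5.34) at day 3 than at day 1. Between day 3 and day 7, 0 were higher and 2 lower, against 9.01% and 7.9%. The 2 were Gnptab (2.32-fold lower (1.71 to 3.25)) and Igf2r (2.08-fold lower (1.55 to 2.84)).

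In the injection experiment the members of the MPSS library lay close to those of the PBS library. The comparison asks what MPSS does to the injured cord 2 weeks after the crush. In microglia, 0 of 35 members were at least 2-fold higher or lower, against 3.55% and 2.85% of all genes, and 32 of the 35 ratios lay between 0.8 and 1.25. In macrophages, 0 of 36 were higher and 1 lower, against 3.87% and 3.52%, and 34 of the 36 lay between 0.8 and 1.25. The medians were -0.01 and -0.02 for the members and 0.00 and 0.01 for all genes. Together the members stood at 24278 CPM in PBS and 24106 in MPSS microglia, and at 21433 and 21818 CPM in macrophages. The PBS library held 306 microglia and 269 macrophages and the MPSS library 428 and 381. Of the 10 leading genes of MPSS macrophages 3 were markers of the class and 2 of another.

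Lamp1 was the member furthest above 1 in both classes. It stood at 557 CPM in PBS microglia and 712 in MPSS microglia, 1.28-fold higher (1.21 to 1.35), and at 847 and 1100.3 CPM in macrophages, 1.30-fold higher (1.25 to 1.36). In oligodendrocytes it stood at 1044 and 1369 CPM, 1.31-fold higher (1.26 to 1.37), and in fibroblasts at 472 and 517 CPM, 1.10-fold higher (1.00 to 1.20). The ratio was above 1 in all 6 classes with enough cells, and its interval lay above 1 in 5 of them. T and NK cells, with few cells, were the exception, at 1.60 (0.848 to 3.12). With 1 library a side, a difference between libraries and an effect of MPSS cannot be told apart.

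The hydrolases and cofactors of phagocytes differed less. In the order PBS and then MPSS, Psap stood at 4296 and 3823 CPM in microglia and 3291 and 3297 CPM in macrophages. Hexa stood at 442 and 396 and at 404 and 414 CPM in the same classes, and Asah1 at 245 and 202 and at 231 and 202 CPM. Asah1 was lower in MPSS in both classes, by less than 1.25-fold. Lipa stood at 139.5 and 134 CPM in microglia and 204 and 164 CPM in macrophages, 1.25-fold lower (1.13 to 1.38) in the latter. Gusb stood at 61.6 and 54.4 and at 88.8 and 108 CPM, 1.21-fold higher (1.06 to 1.39) in macrophages, and Glb1 at 157 and 147 and at 104 and 127 CPM, 1.21-fold higher (1.07 to 1.38). So single hydrolases differed in either direction, each by less than Lamp1 did. Grn stood at 2405 and 2261 and at 1572 and 1512 CPM, Tpp1 at 316 and 329.7 and at 275 and 288 CPM, and Man2b1 at 126 and 116 and at 105 and 96.9 CPM.

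Among the members of microglia, Npc1 had the lowest ratio. Npc1 stood at 30.2 CPM in PBS and 21.4 in MPSS, 1.41-fold lower (1.08 to 1.84), on 117 UMIs each. Cd68 stood at 1629 and 1563 CPM in microglia and 2499.8 and 2570.2 CPM in macrophages, Laptm5 at 827 and 846 and at 639 and 622 CPM, and Lamp2 at 447 and 470.4 and at 345 and 316 CPM. For these 3 no ratio passed 1.25-fold. Mcoln1 stood at 9.03 and 10.6 and at 13.6 and 12.9 CPM. Of the pump genes, Atp6v1a stood at 36.4 and 36.2 and at 68.8 and 65.8 CPM, Atp6v0a2 at 18.3 and 15.2 and at 7.97 and 8.40 CPM, and Atp6v0e1 at 564 and 602 and at 662 and 655 CPM. Atp6v0c stood at 1483 and 1579 and at 1686 and 1827 CPM. Atp6v0d1, the common d isoform, stood at 186 and 187 and at 186 and 171 CPM.

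Atp6v0d2 was the 1 member past 2-fold in macrophages and rested on few cells. It stood at 28.2 CPM in PBS (106 UMIs in 24 of 269 cells) and 9.65 CPM in MPSS macrophages (54 UMIs in 20 of 381 cells), 2.92-fold lower (2.08 to 4.13). A single PBS cell held 36 of the UMIs. Without the cell of highest count in each library the values were 18.99 and 8.80 CPM, 2.16-fold lower (1.48 to 3.18). In both libraries nearly all of these UMIs (105 of 106 and 54 of 54) lay in cluster 8. With clusters in place of single-cell gating the log2 ratio was -0.90 and after thinning to 1000 UMIs -0.52, both under 2-fold. PBS microglia held 0 Atp6v0d2 UMIs and MPSS microglia 1.

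**Figure D5:**
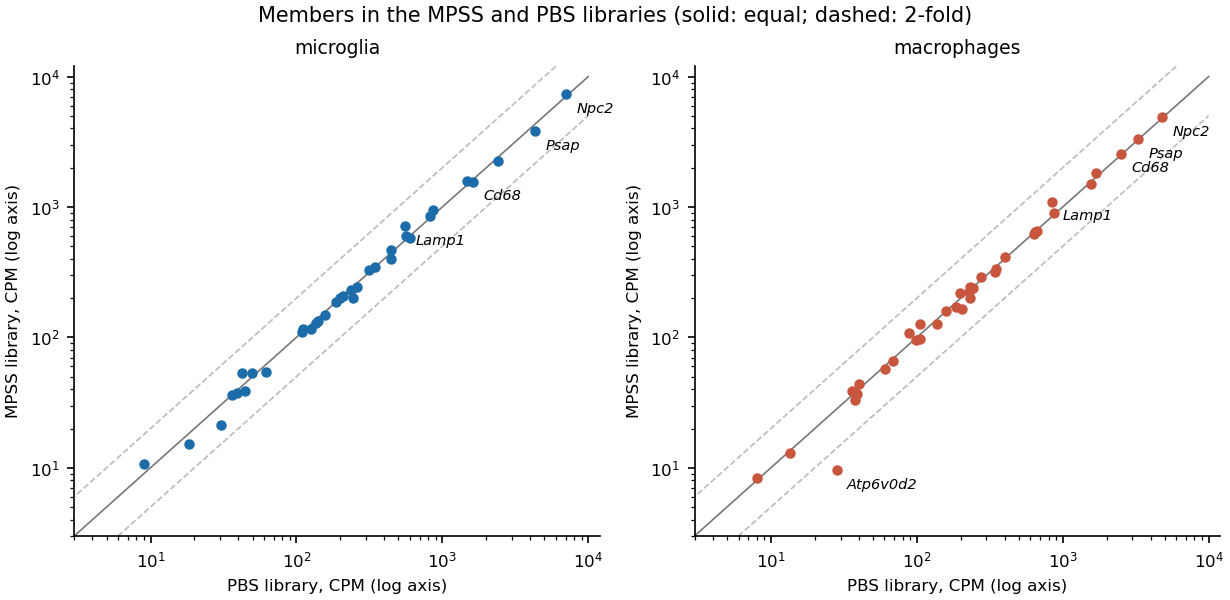
Level of each member in CPM in the MPSS library (vertical, log axis) against the PBS library (horizontal, log axis), for microglia and macrophages. Nearly all points lie along the line of equal level, with Lamp1 above it in both classes and Atp6v0d2 below it in macrophages.

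The other classes gave small differences as well. In oligodendrocytes 0 of 36 members were at least 2-fold higher or lower, against 2.24% and 5.22% of all genes, and the median was 0.05 against -0.08. The largest ratio there was that of Atp6v1g2, at 16.8 and 30.4 CPM, 1.81-fold higher (1.33 to 2.51). In fibroblasts 1 of 35 was higher and 0 lower, against 3.01% and 5.74%. That gene was Cd68, at 17.5 and 40.9 CPM, 2.34-fold higher (1.54 to 3.62), beside 2499.8 and 2570.2 CPM in macrophages of the same libraries. The part of RNA from phagocytes in it was not tested. In T and NK cells, with 51 and 61 cells, 1 of 24 was higher and 1 lower, against 6.53% and 9.27%, on 3 and 10 UMIs of Atp6v1c1 and on 14 and 7 UMIs of Atp6ap2. The 41 other lysosome genes gave 2 higher and 0 lower of 39 in microglia, against 3.55% and 2.85% of all genes, and 1 and 0 of 38 in macrophages, against 3.87% and 3.52%. Among those with at least 50 UMIs, Ctns, the cystine transporter, was highest in microglia, 1.37-fold higher (0.850 to 2.24), and Acp2, an acid phosphatase, was highest in macrophages, 1.47-fold higher (1.16 to 1.88).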

How the data were processed

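The deposited values are raw UMI counts per gene and cell, made by the authors with Cell Ranger 3.0.2 per the submitters' processing notes, while the file headers of the injected libraries name 3.1.0; the genome build is not given in the sources used here. Filters removed cells under 200 genes or 500 UMIs, or with over 20% of UMIs mitochondrial. Each cell took the class of its best marker score (at least 0.15), and phagocytes were split into microglia and macrophages where those scores differed by over 0.02. Counts were summed per class of at least 50 cells and scaled to CPM, with exact Poisson, binomial and Clopper-Pearson intervals, and the ratio step was tested on simulated data with known ratios. With 1 library per group no test was made. The members and lists were chosen with earlier results of these data known. All members could be named; values in every library go to those at least 2-fold apart with at least 50 UMIs in phagocytes and to isoform pairs, and of the 44 other lysosome genes the 4 highest and 2 lowest ratios per comparison were candidates.

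Alternatives were TMM, median-of-ratios and ribosome-free totals, thinning to 1000 UMIs, a mean over cells, Leiden clusters (2000 variable genes, 30 components, 20 neighbours, resolution 1), cells near a cut left out, other minimum counts and a 1.5-fold threshold. Scrublet called 0.0363 to 0.503% of cells as doublets, too few to use, so the 5% highest scores per library were left out instead. Microglia at day 1, the members without Lamp1 and Atp6v0d2 without its highest cells, and leaving out the day 1 ependymal class, were chosen after seeing the data. Computation ran in Python 3.11.15 with scanpy 1.11.5, pandas 2.3.3, scipy 1.17.1, numpy 2.4.6, matplotlib 3.10.9 and igraph 0.11.9. TMM factors came from edgeR 4.0.16 in R 4.3.3.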

Additional observations from a re-analysis of the deposited data

How the results depend on the processing

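No paired analysis was possible because each group is 1 library, and for the same reason no library could be left out. Counts of members past 2-fold, higher plus lower, stayed within 1.5 times their main value in 148 of 197 recomputations. These totals ignore direction, so a changed split can count as unchanged. In phagocytes at day 1, median-of-ratios scaling gave 6 higher and 3 lower in place of 2 and 8. That total, 9 in place of 10, is among the 148. Medians stayed between the medians of the main lower and upper bounds, whatever their sign, in 176 of 192. Another 14 moved outside them, and 2 reversed from a main median whose bounds excluded 0. The 176 include the 1.5-fold threshold, which cannot move a median, in each of the 16 comparisons. Single-gene ratios were followed for members past 2-fold on at least 50 UMIs over both sums. Of 557 such recomputed ratios 467 stayed past 2-fold, 90 fell under it and 0 changed direction. Atp6v0d2 in phagocytes against intact gave no ratio after thinning, which left 0 UMIs in the intact library. The cause was not tested except where a setting itself changes what is counted.

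TMM scaling gave 6, 23 and 21 members past 2-fold in phagocytes at days 1, 3 and 7 in place of 10, 13 and 7, and 5, 13 and 16 in microglia in place of 9, 6 and 8. Median-of-ratios scaling gave 23 and 22 in phagocytes at days 3 and 7 and 5, 13 and 19 in microglia. The members' median in phagocytes at day 1 changed sign, from -0.25 to 0.16 under TMM and 0.19 under median-of-ratios scaling. In microglia at day 1 the members' median of -0.27 changed sign too. The 2 scalings moved all log2 ratios there up by 0.37 and 0.38. A 1.5-fold threshold, which counts more genes by construction, gave 25 and 14 in phagocytes at days 3 and 7, 15, 16 and 14 in microglia, 19 and 9 in macrophages at day 3 against day 1 and day 7 against day 3 (in place of 11 and 2), and 15 and 8 in endothelial cells at days 1 and 3 (in place of 4 and 3). The mean over cells gave 4 in phagocytes and 5 in microglia at day 7, and thinning gave 5 in microglia at day 7. A minimum of 50 UMIs left 1 in macrophages at day 7 against day 3. Without a minimum count endothelial cells gave 6 at day 3 and 4 at day 7, and without Lamp1 they gave 1 at day 7 in place of 2.

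For MPSS against PBS, microglia gave 1 after thinning and 7 without a minimum, in place of 0. Macrophages gave 0 after thinning, 0 with clusters in place of single-cell gating and 6 without a minimum, in place of 1. Oligodendrocytes gave 3 after thinning, 1 by the mean over cells, 4 without a minimum and 2 at 1.5-fold, in place of 0. Fibroblasts gave 3 after thinning, 0 by the mean over cells, 2 with clusters, 6 without a minimum and 2 at 1.5-fold, in place of 1. T and NK cells gave 1 under TMM, 1 after thinning, 5 by the mean over cells, 0 with a minimum of 50 UMIs, 10 without a minimum and 8 at 1.5-fold, in place of 2. With clusters, macrophages against microglia gave 5 within PBS and 5 within MPSS, in place of 2 and 1. Without thinning, 2.55, 7.95 and 16.0% of macrophages had an Atp6v0d2 UMI at days 1, 3 and 7, and 34.3, 91.7, 99.3 and 95.4% of microglia a Lamp1 UMI from intact to day 7.

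Intervals cover counting error in 1 library and say nothing of spread between animals. Members with under 50 UMIs in the smaller classes, such as those of T and NK cells, carry ratios too wide to order.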
